A study of Homo sapiens with 6 samples.

Results

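Pairs of cassette exons carried by the same transcripts were examined in HBEC3kt, an immortalised human bronchial epithelial cell line, with and without the S34F mutation of the splicing factor U2AF1. A cassette exon was taken as an internal exon whose flanking splice sites are joined directly in another isoform of the gene, and a pair as any 2 such exons of a gene that do not overlap. Each nanopore read assigned to an isoform that spans a pair falls into 1 of 4 classes, since it carries both exons, the first only, the second only or neither, with first and second counted in the direction of transcription. Pairs with at least 20 such reads in each genotype were kept. This left 19768 of 22820 candidate pairs, made of 9281 of the 12128 cassette exons of the series, in 2240 of 2423 genes or loci. The study read poly(A) RNA of 3 wild-type (WT) and 3 S34F libraries as full-length cDNA. Replicate 1 of each genotype comes from isolate 1 and replicates 2 and 3 from isolate 2, and replicates 1 and 2 are marked B1 and replicate 3 B2. The labels do not say what B1 and B2 stand for, how the isolates were derived or what else the lines carry. The p-values therefore rest on the spread between these libraries, 2 of which share an isolate in each genotype. The edgeR tests of pairs pooled that spread over all tested pairs, so their p-values do not measure the spread of a single pair.

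In most genes the choice to include or skip an exon is described exon by exon, because short reads seldom reach from 1 alternative exon to the next. A read of a whole transcript shows both choices at once. Mutually exclusive exons, where a transcript takes 1 exon of a pair and leaves the other, and blocks of exons that are kept or lost together are the textbook forms of such coordination. The U2AF1 protein reads the AG at the 3′ end of introns, and S34F replaces a residue in the zinc finger that contacts the bases beside that AG.

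PKM, U2AF1, TPM2 and P4HA2 hold pairs known as mutually exclusive, and their sequences are shown because the exons of such pairs can resemble each other. The exons of PKM, U2AF1 and TPM2 have equal lengths, and capitals mark the positions, counted from the 5′ end, at which both exons of the pair hold the same base. For P4HA2, whose exons differ in length, capitals mark the longest run found in both. All 8 exons lie within the coding sequence of a GENCODE 29 transcript, from which the letters were read, and positions are those of the deposited hg19 models on the minus strand.
PKM first exon, chr15:72495363-72495529: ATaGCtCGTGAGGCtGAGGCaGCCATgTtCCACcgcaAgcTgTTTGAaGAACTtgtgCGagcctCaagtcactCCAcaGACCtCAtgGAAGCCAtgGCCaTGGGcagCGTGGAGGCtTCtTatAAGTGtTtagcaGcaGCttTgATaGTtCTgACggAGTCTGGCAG
PKM second exon, chr15:72494795-72494961: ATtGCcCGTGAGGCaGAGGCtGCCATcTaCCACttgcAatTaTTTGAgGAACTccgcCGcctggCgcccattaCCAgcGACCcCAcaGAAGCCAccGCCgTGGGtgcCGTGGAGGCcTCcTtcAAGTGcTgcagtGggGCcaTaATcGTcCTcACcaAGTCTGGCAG
U2AF1 first exon, chr21:44521476-44521542: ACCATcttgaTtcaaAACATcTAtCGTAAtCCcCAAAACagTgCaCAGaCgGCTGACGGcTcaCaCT
U2AF1 second exon, chr21:44520563-44520629: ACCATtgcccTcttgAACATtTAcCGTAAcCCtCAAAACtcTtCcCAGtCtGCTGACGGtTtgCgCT
TPM2 first exon, chr9:35685061-35685136: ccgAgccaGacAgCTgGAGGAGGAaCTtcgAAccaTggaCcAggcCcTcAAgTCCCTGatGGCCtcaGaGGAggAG
TPM2 second exon, chr9:35684729-35684804: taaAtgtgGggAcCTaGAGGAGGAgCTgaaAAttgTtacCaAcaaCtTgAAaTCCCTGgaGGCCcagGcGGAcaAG
P4HA2 first exon, chr5:131534014-131534073: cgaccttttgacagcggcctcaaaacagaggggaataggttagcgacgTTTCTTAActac
P4HA2 second exon, chr5:131533899-131533964: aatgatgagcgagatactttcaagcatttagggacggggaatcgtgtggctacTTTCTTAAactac
The same base stood at 105 of 167 positions (62.9%) in PKM, at 44 of 67 (65.7%) in U2AF1 and at 40 of 76 (52.6%) in TPM2. The exons of P4HA2, 60 and 66 bases long, shared a run of 8 bases.

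The exons of UPP1 are shown because they gave the smallest p for a difference between the genotypes. Its exons lie on the plus strand of chromosome 7, at exons 5, 6 and 7 of a GENCODE 29 transcript of 10 exons, and the capitals mark a shorter 47-base form of the middle exon that ends at an earlier splice site.
UPP1 118-base exon, chr7:48139267-48139384: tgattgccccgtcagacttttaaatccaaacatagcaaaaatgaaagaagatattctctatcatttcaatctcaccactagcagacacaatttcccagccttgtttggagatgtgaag
UPP1 159-base exon, chr7:48141421-48141579: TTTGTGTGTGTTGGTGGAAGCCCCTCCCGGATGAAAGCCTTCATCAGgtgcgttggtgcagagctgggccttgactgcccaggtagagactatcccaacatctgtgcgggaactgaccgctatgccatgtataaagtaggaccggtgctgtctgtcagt
UPP1 115-base exon, chr7:48142894-48143008: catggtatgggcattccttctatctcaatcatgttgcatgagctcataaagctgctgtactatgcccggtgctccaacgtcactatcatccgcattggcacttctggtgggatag

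The library totals ran from 451540 to 1720292 reads, with all 3 WT libraries above all 3 S34F libraries. A tested pair had a median of 267 to 423 reads in the WT libraries and 116 to 238 in the S34F libraries. The 6 markers of basal bronchial epithelium, all with reads, summed to 2963 to 4548 CPM, counts scaled to equal library totals, in WT and 3721 to 5964 in S34F. Whether a level differs through the number of cells or the RNA per cell cannot be told apart in such bulk libraries. No reads were assigned to the 4 fibroblast, 3 endothelial and 4 ciliated or secretory markers, and of the 4 leukocyte markers CD14 alone had reads, at up to 4.66 CPM in WT and 1.23 in S34F.

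Most pairs could not be asked whether their exons go together, because the deposited isoform set lacks a class. Isoforms carrying both exons, the first only and the second only but none without both made up 6009 pairs (30.4%). In 3851 pairs (19.5%) the class with the first exon only was the sole one missing. In 2222 (11.2%) the sole missing class was that with the second exon only. In 866 (4.38%) the sole missing class was that with both exons. The other incomplete pairs lacked more than 1 class. All 4 classes were present in 2739 pairs (13.9%) of 761 genes. A missing class says that the set holds no such isoform, not that such transcripts are absent. Of the 2739, 2493 pairs in 681 genes had at least 5 reads with and 5 without each exon in each genotype, and these were tested. They hold 2385 different exons, 307 of the genes gave 1 pair and the largest number in a gene was 55, so pairs of a gene share reads and are not independent.

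Among the tested pairs, which have isoforms of all 4 classes, exons were mostly kept or lost together. The measure was the odds ratio, the odds of the second exon among reads with the first divided by the same odds among reads without it, on a log2 scale on which 0 means that the exons are chosen independently. edgeR's quasi-likelihood test with separate inclusion levels for every library called 1577 pairs together (63.3%) and 163 apart (6.54%) at an adjusted p of 0.05, and 753 were not called, so 69.8% were called in either direction. The median log2 odds ratio was 2.49, with quartiles of 0.65 and 4.33. All 6 libraries had the sign of the call in 1456 of the 1577 and in 120 of the 163, while 1051 and 93 of them were called whichever library was left out. In 67 genes some pairs went together and others apart. When pairs lacking a class were included, 37% of 9754 were called together and 13.7% apart, at a median of 0.93, so the majority together held only for pairs with all 4 classes.

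The excess of reads with both or neither was largest for neighbouring exons and fell with separation. With no exon between the members in at least 1 isoform, 1051 of 1397 pairs (75.2%) were together and 83 (5.94%) apart, at a median log2 odds ratio of 3.41. With 1 exon between, 300 of 520 (57.7%) were together at a median of 1.93, and with 3 or more, 135 of 346 (39%) at a median of 0.94, with 33 (9.54%) apart. How both exons are lost matters for this count. Of the reads lacking both exons of neighbouring pairs, 96.9% had a lone intron that jumps the pair, against 36.9% for pairs with exons between. When such reads were left out, 733 pairs could still be tested, 173 were together, 78 apart and the median was 0.43. Of these, 27 of 103 neighbouring pairs were together and 21 apart at a median of 0.33. With exons between, 146 of 630 were together and 57 apart at a median of 0.46. These values cannot show whether separation matters, because removing reads with neither exon lowers the odds ratio by its definition. It does so most for neighbouring pairs, of which 103 of 1397 remained. Pairs in which the rarer form of each exon reached 10% of reads were together in 366 of 670 (54.6%) and apart in 66 (9.85%), at a median of 1.58. The split at 10%, the exclusion of reads with a lone intron and the fit of pairs with 1 or more exons between were chosen after the data were seen.

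**Figure D1:**
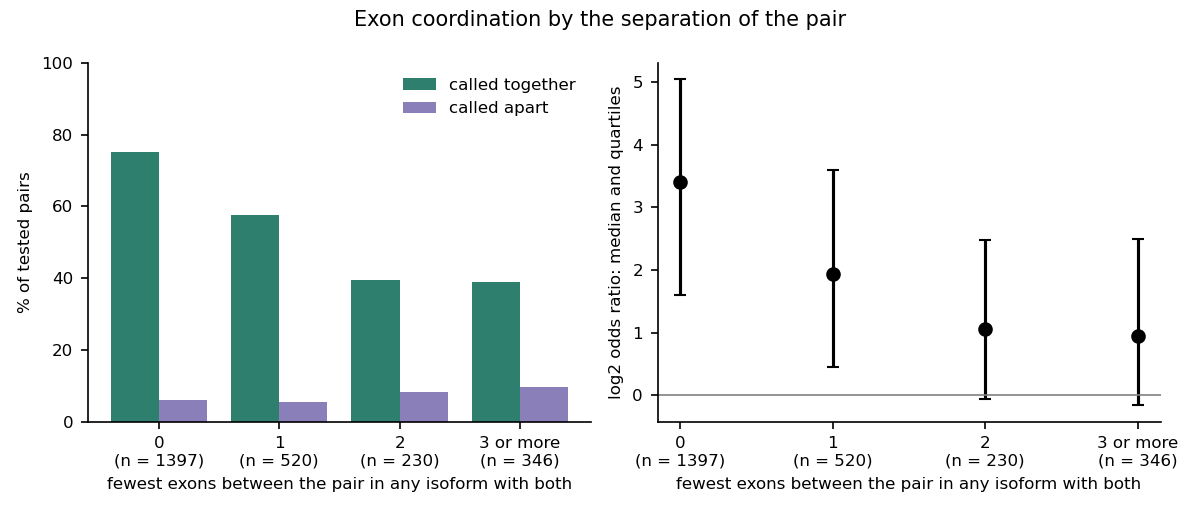
Left, the share of tested pairs called together or apart (edgeR, adjusted p under 0.05) by the fewest exons found between the members in any isoform with both, with the number of pairs under each group. Right, the median fitted log2 odds ratio of each group, with bars from the lower to the upper quartile. The share together falls from 75.2% to 39% and the median from 3.41 to 0.94.

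Among the genes with the smallest p for exons together were GAPDH, KRT14, ANXA2, ENO1, LAMB3, TPI1 and KRT19. LAMB3 encodes a chain of laminin-332, which anchors basal epithelium to its basement membrane. Its exons of 115 and 192 bases, which have another exon between them, were both present in 3908 reads and both absent in 540, with 60 and 1 reads for the first or the second alone. Both were absent in 13.2%, 12.9% and 10.03% of WT reads and in 16.9%, 12.7% and 10.4% of S34F reads, so the genotypes overlapped. Each of the 540 reads that lost both exons did so by a lone intron. Because so few reads hold 1 exon alone, the fitted log2 odds ratio of 14.76 ± 0.48 (SE) rests on those few reads.

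KRT14 and KRT19 encode keratins of basal and simple epithelium, and GAPDH, ENO1 and TPI1 are enzymes of glycolysis. In these genes most reads held both exons. In KRT14 the exons of 83 and 157 bases were together in 13358 reads and both missing in 1113, with 88 and 936 for either alone, a log2 odds ratio of 7.57 ± 0.23 (SE). Reads without the 83-base exon still had the 157-base exon in 42.5 to 51.1% across the WT libraries and 42.3 to 46.9% across the S34F libraries, against 99.2 to 99.6% of reads with it. GAPDH showed the same layout, with 30337 reads with both, 1443 with neither, and 503 and 927 with either alone (6.48 ± 0.20). In KRT19, ENO1 and TPI1 the rarer form of an exon made up 3.68%, 5.14% and 2.03% of reads, and the log2 odds ratios were 6.58 to 7.40. Whether such losses of adjacent exons were made by the cell or in the preparation of cDNA was not tested, and these genes have close copies in the genome. ANXA2, a calcium-dependent membrane-binding protein, went the other way in level, with both exons absent in 38860 of its 41220 reads and the 122-base exon almost only in reads with the 277-base exon, in 431 against 2 reads.

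Some pairs in which both forms of each exon were common formed blocks, and they were picked for that after their values were seen. The exons of DGUOK, UFD1 and PDCD6 are neighbours in an annotated transcript. Over all tested neighbouring pairs, 96.9% of reads lacking both exons had a lone intron over the pair, and the shares for these genes are not reported here. DGUOK encodes the mitochondrial deoxyguanosine kinase. Its exons of 148 and 116 bases (chr2:74177712-74177859 and chr2:74184252-74184367, coding exons 4 and 5 of 7) lie 6392 bases apart, and 779 reads had both, 1448 neither, 89 the first only and 198 the second only (log2 odds ratio 6.18 ± 0.27 SE, adjusted p 1.32e-112 by edgeR). UFD1, part of the machinery that extracts ubiquitinated proteins, had 1115 reads with both its 133- and 33-base exons, 223 with neither and 20 and 34 with either. DBNL, an actin-binding adaptor, had 1083, 300, 10 and 63, and PDCD6, a calcium-binding protein of membrane traffic, had 3876, 589, 69 and 286. All of these pairs were together in each of the 6 libraries, and none of the 4 was called for a difference between genotypes (differences of -0.52 to 1.56 on the log2 scale, each with adjusted p 1).

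FN1 and CD44 are the classic genes with several variable exons. Both held pairs that went together, in FN1 with several exons between them. The pair of FN1's extra domains and the CAST pair given below were picked after their values were seen. FN1 encodes fibronectin, and its 273-base and 270-base exons encode the extra domains B and A (chr2:216257654-216257926 and chr2:216245534-216245803, both coding). The domains have at least 7 exons between them, no read lost both by a lone intron, and 710 reads had both, 41 domain B only, 896 domain A only and 600 neither. Of reads with domain B, 94.7%, 89.1% and 95.9% also had domain A in WT replicates 1 to 3, and 89.3%, 87.5% and 96.6% in S34F. Of reads without domain B, 61.6%, 62.3% and 57.1% had domain A in WT and 65.2%, 52.0% and 63.6% in S34F, so every library showed more domain A where domain B was present. The log2 odds ratio was 3.45 ± 0.24 (SE, adjusted p 9.2e-44, edgeR), and S34F differed from WT by -0.22 with an interval of 1.96 SE from -1.42 to 0.97. Domain A and the 267-base exon of the variable region, with at least 6 exons between, also went together (1525, 348, 466 and 445 reads, log2 odds ratio 2.28 ± 0.24).

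CD44 is a hyaluronan receptor of epithelial cells with a row of variable exons. Its 126-base exon (chr11:35219668-35219793, coding) and 120-base exon (chr11:35223215-35223334, matched in a transcript with no coding sequence) were both present in 483 reads, both absent in 375, and alone in 66 and 72, a log2 odds ratio of 5.85 ± 0.32 (SE). Here each of the 375 reads without both had a lone intron over the pair. The 120-base exon was in 83.0%, 76.5% and 92.0% of WT reads with the 126-base exon and in 87.1%, 80.0% and 96.5% of S34F reads, against 17.3%, 15.2% and 20.1% and 4.35%, 9.52% and 13.6% of reads without it. Among reads without the 126-base exon all 3 S34F libraries were thus below all 3 WT libraries, while among reads with it the genotypes overlapped. The difference in log2 odds ratio was 2.03 ± 0.78 (SE), with an adjusted p of 0.938. CAST, the calpain inhibitor, had its 42- and 57-base exons together at 3.23 ± 0.48, with 702, 51, 65 and 41 reads for both, first, second and neither. Not every distant pair was called: in APLP2, a relative of the amyloid precursor, the 168- and 36-base exons with at least 6 exons between gave 123, 425, 131 and 371 reads and a log2 odds ratio of -0.23 ± 0.28, which was not called.

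**Figure D2:**
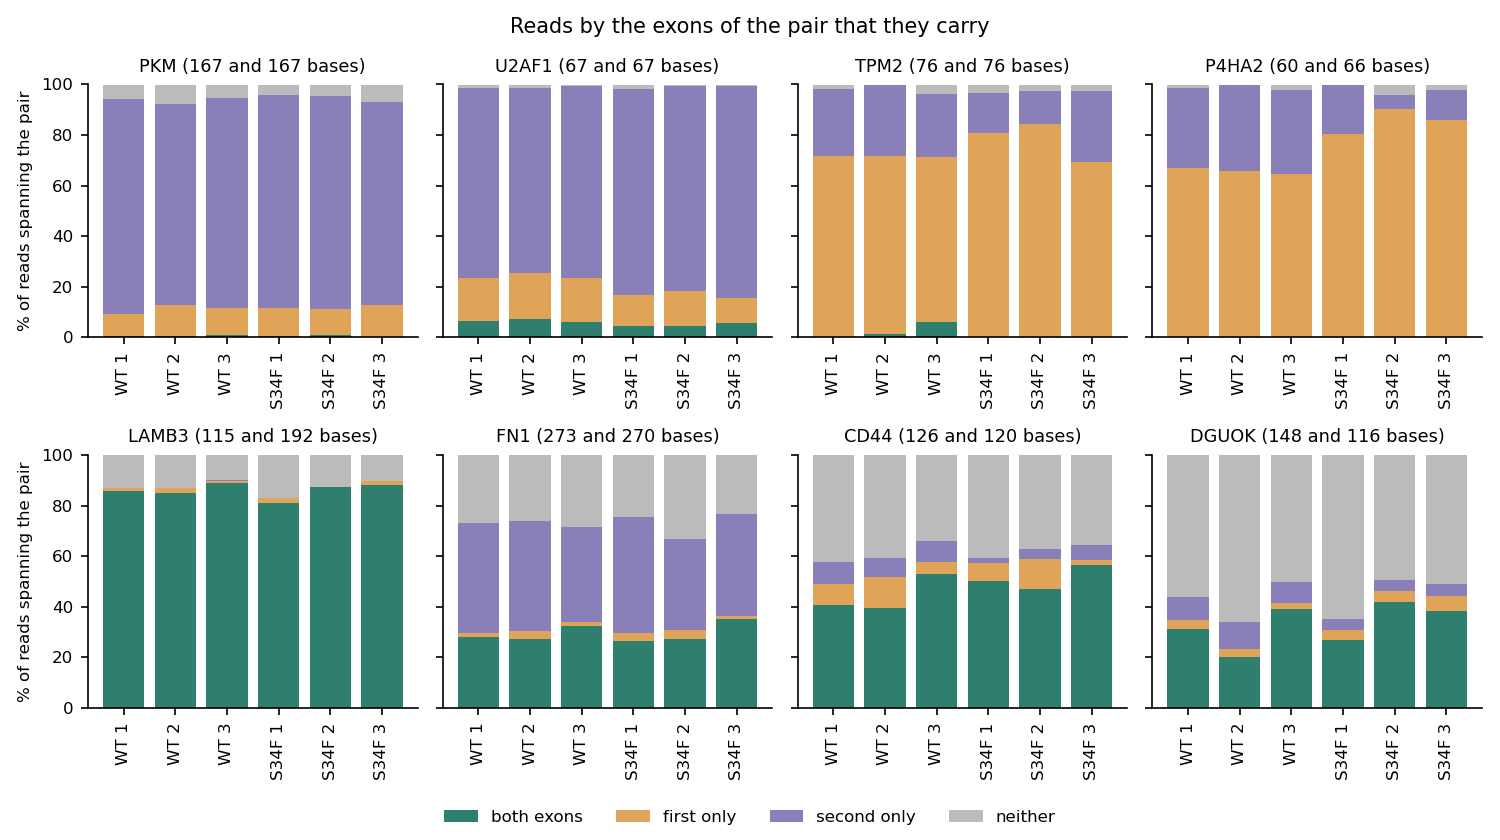
Stacked bars give the percent of reads spanning each pair that carry both exons, the first only, the second only or neither, for each of the 3 WT and 3 S34F libraries, with exon lengths in the panel titles. Reads with both exons are at most 7.32% in the libraries of PKM, U2AF1, TPM2 and P4HA2, while reads with a lone exon are rare in LAMB3. The P4HA2 panel shows a larger share with the first exon only in every S34F library.

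Exons that shunned each other were fewer, and the ones with the smallest p were in PKM, ACTB, KRT7, U2AF1, AP3S1 and LDHA. PKM encodes the pyruvate kinase of glycolysis, and its mutually exclusive pair of 167-base exons gives PKM1 (the first) or PKM2 (the second). The second alone was in 5403 reads, the first alone in 677, both in 37 and neither in 381. The first exon was in 9.27%, 12.8% and 11.5% of WT reads and in 11.4%, 11.1% and 12.7% of S34F reads. Reads with the first exon held the second in 4.59%, 5.59% and 8.08% in WT and 5.44%, 6.67% and 1.15% in S34F, while reads without it held the second in 91.0 to 95.4% in all 6 libraries. The log2 odds ratio was -8.13 ± 0.27 (SE, adjusted p 1.82e-190), and the genotypes differed by -0.77 (interval -2.06 to 0.53). Reads with neither exon, which the textbook description of a strict choice leaves out, were 5.36 to 7.86% in WT and 4.10 to 6.73% in S34F.

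TPM2 encodes a tropomyosin, which lines actin filaments, and its 76-base pair was the most exclusive of the tested pairs of equal length, with 298 reads for the first alone, 99 for the second alone, 7 for both and 8 for neither. The 7 reads with both were in WT replicates 2 and 3, with 2 and 5 reads, and no S34F library had any. The log2 odds ratio was -9.85 ± 0.72 (SE), a value that rests on those few reads. P4HA2, a subunit of the enzyme that hydroxylates proline in collagen, could not be tested because no deposited isoform has both of its exons: 599 reads carried the 60-base exon, 212 the 66-base exon and 14 neither. Over all tested pairs of equal length, 4 of 19 were apart (21.1%, against 6.54% of all tested pairs) and 7 together, and the 4 called apart were those of PKM, U2AF1, TPM2 and TPM3, another tropomyosin with a pair of 76 bases.

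Other pairs were apart without being alike in length. KRT7, a keratin of simple epithelium, had 9685 reads with its 212-base exon alone, 602 with the 140-base exon alone, 406 with both and 391 with neither (-5.18 ± 0.22 SE). In LDHA, which makes lactate, the 118-base coding exon 3 and a 104-base exon with no matching GENCODE 29 exon were alone in 441 and 353 reads, together in 35 and both absent in 109 (-5.70 ± 0.31). CKLF, a chemokine-like factor, had 163 and 614 reads with its 159- or 96-base exon alone, 355 with both and 23 with neither (-3.68 ± 0.34). CD59, an inhibitor of complement, paired a 45-base exon of the 5′ UTR with a 71-base exon at least 2 exons away, and 27 reads had both, against 1078 and 1258 with either and 5183 with neither (-3.62 ± 0.35). ACTB, with 2119 and 1983 reads for either exon, 1408 for both and 1 for neither, has many near-identical copies in the genome, and how reads were shared among copies is not stated in the sources.

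U2AF1 is itself alternatively spliced at its 67-base pair, exon 3 of its annotated transcripts, which gives the a or b form of the protein. The second exon alone was in 2135 reads, the first alone in 446, both in 169 and neither in 32, and the log2 odds ratio was -7.46 ± 0.32 (SE, adjusted p 5.66e-116). Unlike in PKM, reads with the first exon often held the second too, in 26.9%, 29% and 25.2% of them in WT and 25.9%, 25% and 35% in S34F. Of reads without the first exon, 97.8 to 99.4% held the second in all 6 libraries. The genotypes differed by -0.03 (interval -0.61 to 0.56). The first exon was in 23.6%, 25.3% and 23.6% of WT reads and 16.7%, 18.4% and 15.7% of S34F reads, so every S34F library was below every WT library, but the edgeR test of this inclusion gave -0.65 ± 0.27 (log2 odds, SE) with an adjusted p of 0.439. The second exon mirrored it, at 81.3% ± 0.54 (SD, n = 3) in WT and 86.8% ± 1.90 in S34F (adjusted p 0.534). Other tested U2AF1 pairs were weaker: an 88-base exon (coding exon 2) went with the second 67-base exon at 1.28 ± 0.46 and apart from the first at -1.20 ± 0.42, and neither call held in every setting. The former ended without S34F replicate 1 (adjusted p 0.0674), at equal depth (0.0663) and with skips by a lone intron left out (0.33 on the log2 scale, adjusted p 0.791). The latter ended without S34F replicate 3 (0.249), at equal depth (0.0526) and with B1 libraries only (-0.59, adjusted p 0.408). A rare 54-base exon was also called together with the first 67-base exon at 0.98 ± 0.43, a call that ended without WT replicate 1, S34F replicate 2 or S34F replicate 3 (adjusted p 0.127, 0.0738 and 0.188). It ended too with DESeq2 (0.104), B1 libraries only (0.18), equal depth (0.248) and skips by a lone intron left out (0.0823). The remaining kept U2AF1 pairs lacked a class and were not tested.

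Some pairs had isoforms of opposite classes only. In 79 pairs every isoform had both exons or neither, and in 34 every isoform had the first or the second. With most reads among the former were MED24, PUF60 and PKM. MED24 is a subunit of the Mediator complex, and its 57- and 83-base exons, with at least 9 exons between them, were both present in 1094 reads and both absent in 1115. By library, both were present in 48.9%, 51.3% and 52.0% of WT reads and 51.9%, 48.9% and 44.9% of S34F reads, so the split was close to even everywhere. With most reads among the latter were LRRC75A-AS1, PUF60, RPL4 and PTBP1. LRRC75A-AS1 is a non-coding transcript, and 1628 of its reads held a 44-base exon and 1678 a 143-base exon, with none for both or neither. In the splicing repressor PTBP1, 23 reads held a 78-base exon and 419 a 34-base exon that stands 2299 bases further on. No odds ratio was fitted for these pairs, since a class without an isoform is 0 by the make-up of the set.

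The second question was whether S34F alters how exons go together. In the edgeR test no pair of 2493 was called for a difference between genotypes (0%), and 107 (4.29%) had an unadjusted p under 0.05. DESeq2 called 0, with 25 at an unadjusted p under 0.05, and limma on the log2 odds ratios called 2, with 168. The values of the 3 WT and 3 S34F libraries did not overlap in 290 pairs (11.6%). Among all orderings of 3 against 3 libraries a share of 0.1 has no overlap, so 11.6% is close to what random order would give. In 20 pairs (0.802%) all WT libraries lay on 1 side of 0 and all S34F libraries on the other. The median log2 odds ratio over the tested pairs was 2.52, 2.39 and 2.57 in the WT libraries and 2.56, 2.54 and 2.56 in the S34F libraries, and its difference of 0.06 was within the spread (two-sided exact permutation p 0.4, where 3 against 3 libraries cannot go below 0.1). Within the B1 libraries the difference was also 0.06. Across the 2493 pairs the log2 odds ratios of libraries correlated at r of 0.848 to 0.866 between WT libraries. Between S34F libraries r was 0.797 to 0.812 and between genotypes 0.787 to 0.849. Pairs share isoforms, and the S34F libraries were also shallower. Whether depth lowered their correlations was not tested. A single pair's difference was known to within a median of 2.25 (1.96 SE), though the width differed widely between pairs.

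**Figure D3:**
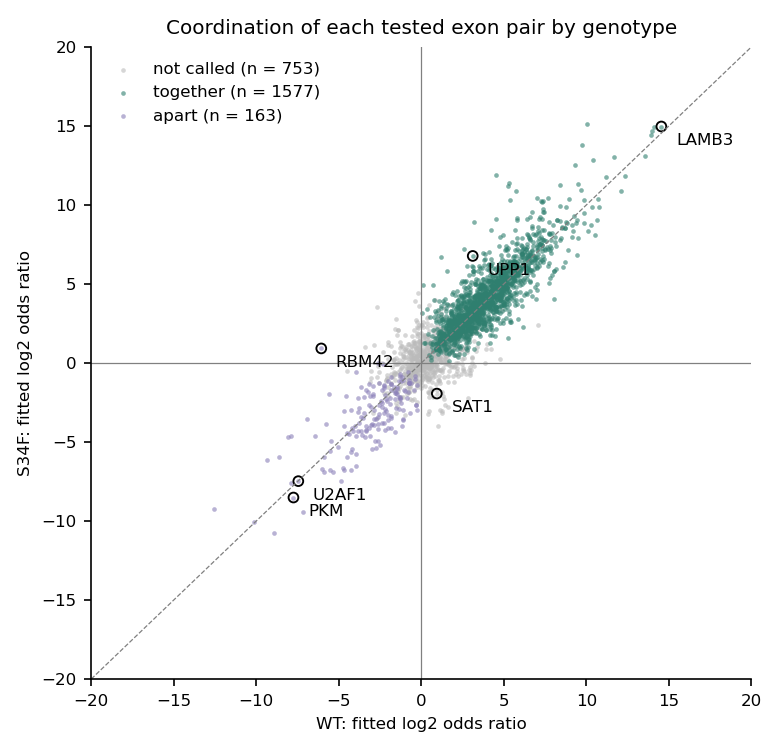
Each point is a tested pair, with its fitted log2 odds ratio in WT on the x axis and in S34F on the y axis, coloured by whether the pair was called together, apart or neither over both genotypes. The dashed line marks equal values. UPP1 (118 and 115 bases), RBM42 and SAT1, ringed and named, lie farther from the line than LAMB3, U2AF1 and PKM.

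The pair with the smallest p was in UPP1, the uridine phosphorylase that releases uracil from uridine, between the 118-base and 115-base exons printed above. Of WT reads with the 118-base exon, 29.3%, 31.2% and 36.2% held the 115-base exon. Of S34F reads with it, 48.6%, 76.7% and 62.8% did, so all 3 S34F libraries were above all 3 WT libraries. Among reads without the 118-base exon the 115-base exon was in 5.73%, 6.08% and 3.26% in WT and in 3.64%, 0 of 43 and 0 of 51 reads in S34F, where 0 reads allow shares of up to 6.98% and 5.88% (3 reads, for counting error only). The log2 odds ratio was higher in S34F by 3.66 ± 0.88 (SE), with an unadjusted p of 3.25e-05 and an adjusted p of 0.0809 (edgeR). Over the alternatives run, its adjusted p ranged from 0.00549 (without S34F replicate 1) to 1 (DESeq2, and equal depth in all libraries). It also passed the threshold with 1 pair per gene (0.0291), with 10 reads with and without each exon (0.0461) and without WT replicate 3 (0.05 after rounding). So it did in 2 settings that were not planned, pairs whose rarer form reached 10% (0.0342) and 1 or more exons between (0.0443). Without S34F replicate 2 the adjusted p was 0.75. The difference itself was 6.70 without S34F replicate 1 and 1.96 with each exon's own flanking sites. The S34F values rest on 86 to 94 reads per library against 1253 to 1997 in WT, and only 2 S34F reads held the 115-base exon alone, both of them in replicate 1. Of the 1697 reads without both exons, 1147 had a lone intron over the pair, and when these were left out the difference was 1.88 (adjusted p 0.971). The neighbouring 118- and 159-base exons of UPP1 were together in every library, with 1502 reads for both, 1147 for neither and 29 and 156 for either alone (9.84 ± 0.42). Reads with the 47-base form are in none of these classes. Of the counted reads without the 118-base exon, 12.3%, 13.9% and 13.0% held the 159-base exon in WT. In S34F 4.08%, 2.56% and 2.08% did, so the genotypes did not overlap there. The difference in log2 odds ratio was 2.85 ± 1.34 (SE, unadjusted p 0.0333, adjusted p 1).

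**Figure D4:**
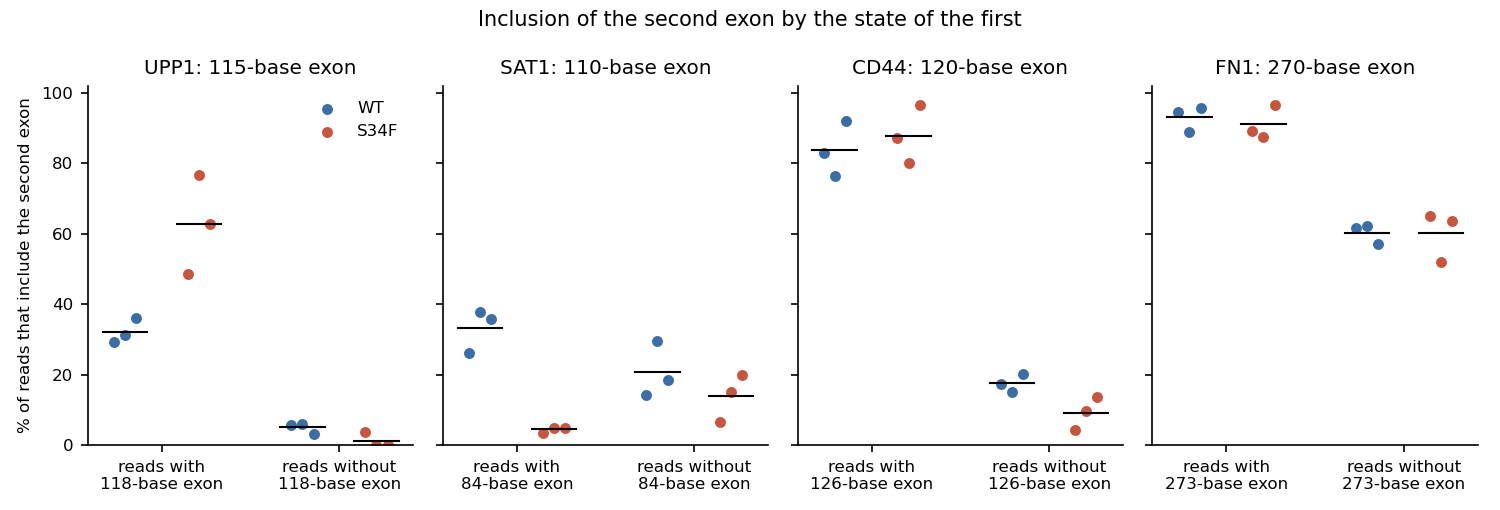
Points give, for each library, the percent of reads that include the second exon of a pair among reads with and without the first exon, in WT (blue) and S34F (red), with the mean as a line. In UPP1 the 3 S34F libraries lie above WT among reads with the 118-base exon, and in SAT1 the 3 S34F libraries lie below WT among reads with the 84-base exon, while in CD44 and FN1 the genotypes overlap among reads with the first exon.

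SAT1, which acetylates spermidine and spermine for export or breakdown, had the third smallest p. Its 84-base coding exon is nearly always present, and its 110-base exon (chrX:23802411-23802520) is annotated in a transcript with no coding sequence. Reads with the 84-base exon held the 110-base exon in 26.2%, 37.9% and 35.9% in WT and in 3.48%, 4.97% and 4.80% in S34F, while among reads without it the values were 14.3%, 29.5% and 18.6% and 6.67%, 15% and 20%. The log2 odds ratio per library was 1.02, 0.52 and 1.25 in WT and -1.48, -1.91 and -2.40 in S34F. The edgeR difference of -2.88 ± 0.82 (SE) had an adjusted p of 0.364, limma gave 0.000846 and the other alternatives 0.246 to 1. In RBM42, an RNA-binding protein, the difference of 6.98 ± 1.85 (adjusted p 0.198) rested on 6 reads without both exons, none of them in WT, and leaving out S34F replicate 2 took the adjusted p to 0.0391, within a range of 0.0391 to 1 over the alternatives. TMEM106C and SNX17 had differences of 7.37 and 4.29 and adjusted p of 0.575 and 0.615, with 11 reads in the rarest class of each. The TMEM106C value was 4.64 without S34F replicate 3, 3.14 with inclusion per genotype and 2.92 with limma.

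The inclusion of single exons was tested apart from their pairing. Of 8490 cassette exons tested, 44 (0.518%) were called for inclusion by edgeR. Of the 7783 that belong to kept pairs, 43 were called in 35 genes, 41 lower and 2 higher in S34F. The counts depended on the libraries: 9 exons were called lower without S34F replicate 1, 15 without S34F replicate 2, 21 without S34F replicate 3 and 26 without WT replicate 1. DESeq2 called 3 lower and 0 higher, and with B1 libraries only 27 lower and 3 higher were called. A B1/B2 term gave 90 lower and 14 higher.

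SAT1's 110-base exon fell from 32.8% ± 6.21 (SD, n = 3) to 5.26% ± 0.80, a log2 odds change of -3.11 ± 0.30 (SE, adjusted p 8.42e-09). The 118-base exon of UPP1 was called lower too, at 67.4% ± 1.67 in WT and 44.9% ± 5.61 in S34F (adjusted p 0.0233), a call that ended without WT replicate 1, S34F replicate 1 or S34F replicate 3 (0.0672, 0.225 and 0.0844) and with DESeq2 (0.525). For UPP1's 47-base form the share is of reads with that form or with an intron across it, and reads with the 159-base form are not counted. It was 69.5%, 70.0% and 69.3% in WT and 29.9%, 22.5% and 21.3% in S34F (adjusted p 6.31e-07), so the genotypes were far apart. SRSF3, an SR protein that limits its own level through a 456-base exon with an early stop, had that exon in 18.1%, 28.3% and 33.0% of WT reads and 5.39%, 4.25% and 3.80% of S34F reads (adjusted p 3.88e-06). The 97-base exon of AGTRAP, which binds the angiotensin receptor, fell from 15.1% ± 3.39 to 2.87% ± 0.55 (adjusted p 0.00195). The 79-base exon 3 of SNRPA1, which encodes a protein of the U2 snRNP, fell from 96.0% ± 2.03 to 79.8% ± 3.67 (adjusted p 0.0037, and 0.0527 without S34F replicate 1). A 62-base exon of the spindle checkpoint gene BUB3, unmatched in GENCODE 29, fell from 8.21% ± 3.10 to 2.02% ± 0.20 (adjusted p 0.0058). By DESeq2 the adjusted p was 0.0733 for AGTRAP, 0.106 for SNRPA1 and 0.334 for BUB3, and with B1 libraries only that of BUB3 was 0.123.

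P4HA2 holds a pair of mutually exclusive exons that were called for inclusion in opposite directions, and it was singled out after its values were seen. The 60-base exon was in 67.2%, 65.7% and 64.7% of WT reads and in 80.4%, 90.3% and 86.0% of S34F reads. The 66-base exon was in 30.3%, 32.7% and 32.4% of WT reads and in 19.3%, 5.48% and 11.9% of S34F reads. The genotypes did not overlap for either exon, and the log2 odds moved by 1.65 and -1.79 with adjusted p of 0.0253 and 0.0211 (edgeR). The 60-base exon was thus 1 of the 2 exons called higher. Both calls ended without S34F replicate 2 (adjusted p 0.14 and 0.151), without S34F replicate 3 (0.159 and 0.121), with B1 libraries only (0.124 and 0.0742) and with DESeq2 (0.641 and 0.678), and that of the 60-base exon also without S34F replicate 1 (0.0527) or WT replicate 2 (0.0591). In PKM neither exon of the pair was called for inclusion (adjusted p 0.962 and 0.985), and in TPM2 the first exon was at 71.7% ± 0.21 (SD, n = 3) in WT and 78.1% ± 7.88 in S34F (adjusted p 0.816).

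**Figure D5:**
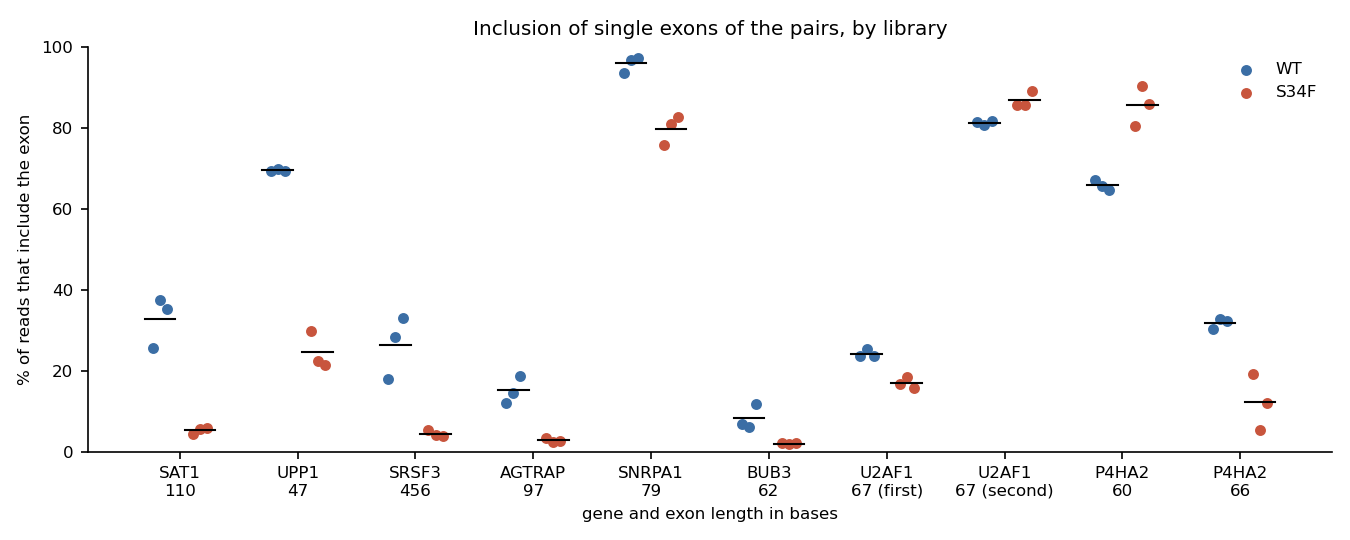
Points give the percent of spanning reads that include an exon in each WT (blue) and S34F (red) library, with the mean as a line, for the 6 genes with the smallest p, the 67-base pair of U2AF1 and the 60- and 66-base pair of P4HA2. The S34F libraries lie below WT in the first 6 exons, and the exons of the U2AF1 and P4HA2 pairs lie on opposite sides. For the 47-base form of UPP1, reads with the 159-base form are not counted.

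Calls of inclusion were then set beside the pairing. Of the tested pairs, 71 in 22 genes hold an exon called for inclusion, and 7 of them (9.86%) had an unadjusted p under 0.05 for the difference in odds ratio, against 100 of the other 2422 (4.13%). These pairs share exons and reads, and none was called. Of 2285 exons of tested pairs, 29 were called for inclusion (1.27%), against 0.518% of all cassette exons. Exons of tested pairs needed at least 5 reads with and 5 without the exon in each genotype. The other cassette exons did not, so the 2 shares are of unlike sets. Whether this filter made the difference was not tested.

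Lists of genes were looked up for their pairs, and their members were chosen with earlier results of these data known. Of the tested pairs in genes with known mutually exclusive exons, 9 of 57 were apart (15.8%, against 6.54% of all tested pairs) and 41 together, in 7 genes. Among genes for SR, hnRNP and related RNA-binding proteins, 6 of 36 were apart (16.7%) and 19 together (52.8%). In HNRNPD, the 57-base coding exon 2 and the 147-base coding exon 7, with at least 4 exons between, were alone in 152 and 100 reads, both present in 78 and both absent in 35 (-2.64 ± 0.45 SE). In HNRNPA2B1 the 36- and 120-base exons, with at least 5 exons between, were instead together (309, 15, 683 and 159 reads, 2.27 ± 0.40). Genes with several variable exons had 20 of 23 pairs together (87%) and 1 apart, in 7 genes. Those of an epithelial splicing programme had 7 of 9 together and 0 apart, in only 2 genes. Genes named in the field as S34F splice targets had 13 of 29 pairs together (44.8%, against 63.3% of all tested pairs), and 2 apart. These pairs come from 4 genes, among them UPP1, which was already described above for its small p. An unadjusted edgeR p under 0.05 for a difference between genotypes (4.29% of all tested pairs) was found in 3 of these 29. The UPP1 pairs described above are among those 3. It was found in 4 of 23 pairs of the genes with several variable exons and in 3 of 9 of the epithelial list. CD44 is in both of these lists, so its tested pairs count in each. The other lists had 1 such pair each.

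Exon lengths were compared with the calls because 2 exons whose lengths add to a multiple of 3, while neither length is one, keep the reading frame only as a block. Pairs in which only the sum is a multiple of 3 were together in 346 of 507 (68.2%) and apart in 25 (4.93%). Pairs in which neither a length nor the sum is a multiple of 3 were together in 257 of 399 (64.4%) and apart in 40 (10%). Where both lengths are multiples of 3 the values were 286 of 469 (61%) and 34 (7.25%). Where 1 length is a multiple of 3 they were 688 of 1118 (61.5%) and 64 (5.72%). These are shares of pairs that share exons and genes, and no test was made of them.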

How the data were processed

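Full-length cDNA of poly(A) RNA, made after Smart-Seq2, was read on a MinION per the labels' protocols. The deposited table holds raw counts of reads per isoform and library, which the authors made over a single isoform set whose models were deposited beside it. Per the submitters' processing notes the genome build was hg19. The sources do not state the aligner, the filters or how reads were assigned to isoforms. Of 63289 models, 65 have no counts. No sample column was left out (0 unused).

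Cassette exons, pairs and read classes were built from the exon chains with Python 3.11.15. Pairs with at least 20 reads in each genotype, at least 5 with and 5 without each exon, and isoforms in all 4 classes were tested with edgeR 4.0.16 (R 4.3.3, quasi-likelihood test, Benjamini-Hochberg). The model had terms for each library's level of each exon and 1 odds ratio per genotype, with 4 residual degrees of freedom. edgeR estimated infinite prior degrees of freedom for pairs and 35.9 for exons, so a pair that varies more than the rest gets no wider error. Odds ratios per library had 0.5 added to each class. Inclusion of single exons needed 10 reads in every library. Alternatives used DESeq2 1.42.0, limma 3.58.1, other filters, offsets and library sets. The fits were tested on simulated data. Reads are copies made by PCR without molecular identifiers. A count of reads is therefore not a count of molecules, and errors from counting reads alone can be too small.

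The named genes are those with the smallest p (8 together, 6 apart, 6 for each S34F comparison), the 4 with most reads for each pattern of opposite classes, U2AF1, and list genes. Some genes that the rule names are not reported here. Further genes were chosen with their values in view and are so described. The members and lists were chosen with earlier results of these data known. Exons were matched to GENCODE 29 transcripts of the same gene by exon length and both intron lengths, which found 125 of 136 named exons, 107 of them coding.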

Additional observations from a re-analysis of the deposited data

How the results depend on the processing

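No value changed direction under the alternatives run. The counts of pairs called together and apart (1577 and 163) moved by over 1.5 times where the set of pairs was changed: 3613 and 1336 of 9754 with pairs lacking a class included (37% and 13.7%), 639 and 101 when reads had to use each exon's own flanking sites, 422 and 58 with 1 pair per gene, 365 and 65 with the rarer form at 10% or more, 173 and 78 with skips of both exons by a lone intron left out, and 507 and 74 with 1 or more exons between. Equal depth gave 94 apart and B1 libraries only 107. Leaving out each library gave 1244 to 1498 together and 120 to 154 apart. The count of S34F differences in coordination was 2 with limma, and 1 with 10 reads with and without each exon, with 1 pair per gene and with the rarer form at 10% or more, and 0 to 1 when each library was left out. The S34F minus WT difference of the median log2 odds ratio was 0.01 to 0.1 when each library was left out. Inclusion calls, 2 higher and 41 lower, were 14 and 90 with a B1/B2 term, 0 and 3 with DESeq2, 3 and 27 with B1 libraries only, 4 and 55 with 10 reads in total, and 4 and 50 with isolate 2 summed, and 0 to 7 and 9 to 36 when each library was left out. The cause of these shifts was not tested, except that fewer pairs or libraries entered where a set was cut.

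The main fits did not treat the replicate numbers as pairs. In their deviations, same-numbered WT and S34F libraries correlated at -0.004, -0.023 and 0.067 for odds ratios. For inclusion they correlated at 0.032, 0.005 and 0.264. The value of 0.264 is that of replicate 3, marked B2 in both genotypes, and differently numbered libraries gave -0.175 to 0.131 for inclusion. Whether B1 and B2 have an effect shared by the genotypes was not tested. With a replicate block, 1386 pairs were called together, 140 apart and 0 for S34F, and inclusion gave 6 higher and 70 lower, and the U2AF1 pair of 54 and 67 bases had an adjusted p of 0.0552. Depth limits the odds ratios of the 132 tested pairs that had a class without reads in 1 genotype.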
